A study of Danio rerio with 36 samples.

Results

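The chromosome ends described here are the outermost 1 Mb at both sides of 24 zebrafish chromosomes, 48 ends in all. Each end was divided into windows of 1 kb, counted from position 0 or from the last listed CpG of the chromosome, and chromosome 4 was left out. Of 1338131 windows that hold a listed CpG, 47778 lie at the ends and 1213887 in the inner parts of the same chromosomes. Position alone chose the windows, and a window was used where at least 5 of its CpG dinucleotides had a value in every fish of a comparison. This left 9065 end windows in whole body, 22405 in G2 sperm and 29939 in G4 sperm, of 403058, 624580 and 763308 such windows on all chromosomes. In 6627 end windows the minimum was met by CpGs valued in all 18 fish.

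Bisulfite treatment, which turns unmethylated cytosines into bases read as thymine, was followed by sequencing of the whole genome. The 36 libraries came from 18 zebrafish of mixed background, 3 in each of 6 groups, with 2 libraries per fish made with different kits. The first pair of groups was dnmt1+/+ and dnmt1m/m whole body at 18 dpf (days post fertilization), which the labels call whole embryo and which holds many cell types. The second pair was sperm of adult dnmt1+/+ and dnmt1m/m males, given as generation 1 in the labels and as G2 in the study. The third pair was sperm of G4 males that were wild type for dnmt1 and descended from mutant males. G4* males transmitted impaired larval T cell development to their offspring, and G4+ males did not. The mutant allele, dnmt1 t25501, carries a missense change in the catalytic domain and is regarded as a hypomorph, so that some enzyme activity may remain. All values below are methylation levels, that is, the percent of reads in which a CpG was methylated, averaged over the CpGs of a window and then over windows.

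Dnmt1 copies the methylation of the parental DNA strand to the newly made strand after replication, and a cell with too little of it loses methylation as it divides. Vertebrate chromosomes end in telomere repeats, and the DNA next to them is often rich in repeated sequence and in CpGs. In zebrafish males, meiotic crossovers are concentrated towards the chromosome ends.

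The ends were richer in CpGs than the inner parts and were covered differently. They held 21.1 listed CpGs per window, against 17.7 in the inner parts. In whole body, 18.97% of the end windows passed the minimum of 5 CpGs, against 31.2% of the inner windows. The corresponding shares were 46.9% and 47.9% in G2 sperm and 62.7% and 58.2% in G4 sperm. In wild-type whole body, 29.6% to 37.3% of the listed CpGs at the ends had a value in a fish, against 42.8% to 49.4% in the inner parts, and in the mutants the shares were 40.8% to 44.2% and 49.7% to 53.6%. The authors removed CpGs with few reads and CpGs at a sequence variant, so that the ends described here are their better covered portion.

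In wild-type fish the ends were less methylated than the inner parts, by about 1 percentage point in whole body and by more than 3 in sperm. The levels at the ends were 81.6%, 81.4% and 81.3% in the 3 wild-type whole bodies, and 82.7%, 82.4% and 82.3% in their inner parts. In wild-type G2 sperm the ends stood at 88.9%, 89.0% and 88.9% and the inner parts at 92.4%, 92.3% and 92.3%. Every wild-type fish thus had the lower level at the ends, and in sperm the levels at the ends and in the inner parts were far apart relative to the spread between males. The difference between ends and inner parts was -1.01 ± 0.053 points in whole body and -3.38 ± 0.0594 points in G2 sperm (SD, n = 3). An exact sign-flip test within 3 fish cannot go below p = 0.25, which was the value in each group. The deficit depended on how windows were averaged, since between the medians of end and inner windows it was -0.131 points in G2 sperm and turned to +1.137 points in whole body.

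In dnmt1 mutants the order was the opposite, and the ends kept more methylation than the inner parts. The 3 mutant whole bodies had 57.2%, 57.1% and 56.9% at the ends, against 54.6%, 54.7% and 54.5% in the inner parts. The sperm of the 3 mutant G2 males had 66.6%, 77.5% and 75.3% at the ends, against 59.0%, 70.3% and 68.4% in the inner parts. The first mutant male had less methylation than the other two in both places, but the difference between ends and inner parts was alike in the 3 males, at 7.56, 7.16 and 6.93 points. It was 2.52 ± 0.133 points in mutant whole body and 7.22 ± 0.318 points in mutant G2 sperm.

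**Figure D1:**
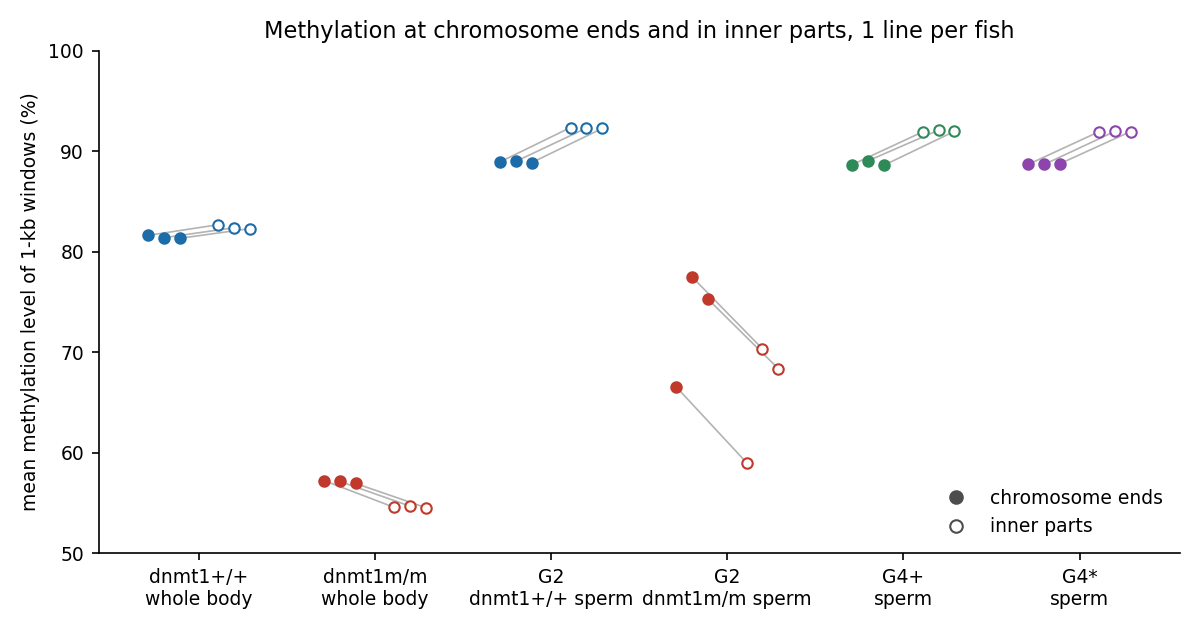
Mean methylation level (percent) of 1-kb windows at chromosome ends (filled circles) and in the inner parts (open circles) for each of the 18 fish, with 1 line joining the values of a fish. Lines rise from ends to inner parts in the wild-type and G4 groups and fall in both mutant groups.

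The loss of methylation in mutants was therefore smaller at the ends. In whole body the level fell by 24.3 points at the ends and by 27.9 points in the inner parts, so that mutants retained 70.1% of the wild-type level at the ends and 66.2% in the inner parts. In G2 sperm it fell by 15.8 points at the ends and by 26.4 points in the inner parts, with 82.2% (74.8% to 87.1% in single males) and 71.4% (63.9% to 76.2%) retained. The loss at the ends was smaller than that in the inner parts by 3.54 points in whole body and by 10.6 points in G2 sperm. In both tissues the end minus inner differences of the 3 mutants and of the 3 wild-type fish did not overlap (two-sided exact permutation test, p = 0.1, the smallest value that 3 against 3 can give). Over CpGs valued in all 18 fish the values were 3.42 and 10.3 points, and the difference of 6.84 points between the tissues also reached p = 0.1 in the exact permutation test. That test set each mutant against the mean of its wild-type group, so that the spread between wild-type fish did not enter it.

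CpG content moved with these differences. Windows rich in CpGs lost less methylation in mutants wherever they lay, and the measured end windows held 28.0 listed CpGs in whole body and 25.7 in G2 sperm, against 21.0 and 20.6 in the inner parts. When ends and inner parts were compared within 6 classes of CpG content, the difference in loss dropped to 1.10 points in whole body and to 8.26 points in G2 sperm, and p remained 0.1 in the exact permutation test for each. Within these classes the difference between ends and inner parts was -0.304 points in wild-type and 0.796 points in mutant whole body, and -1.78 and 6.47 points in wild-type and mutant G2 sperm. In both tissues the loss was smaller at the ends in each of the 6 classes. In G2 sperm the level changed by -24.4 points at the ends and by -34.8 points in the inner parts for windows with fewer than 10 listed CpGs. For windows with 40 or more it changed by -10.1 and -15.9 points. In whole body the ends and the inner parts lay closer, with changes of -33.2 and -34.3 points in the poorest class and of -16.6 and -18.02 points in the richest. The share of CpGs with a value also differed between ends and inner parts. In windows where at least 50% of the listed CpGs were measured, the difference in loss was 3.16 points in whole body and 11.1 points in G2 sperm. This setting was chosen after seeing the data.

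**Figure D2:**
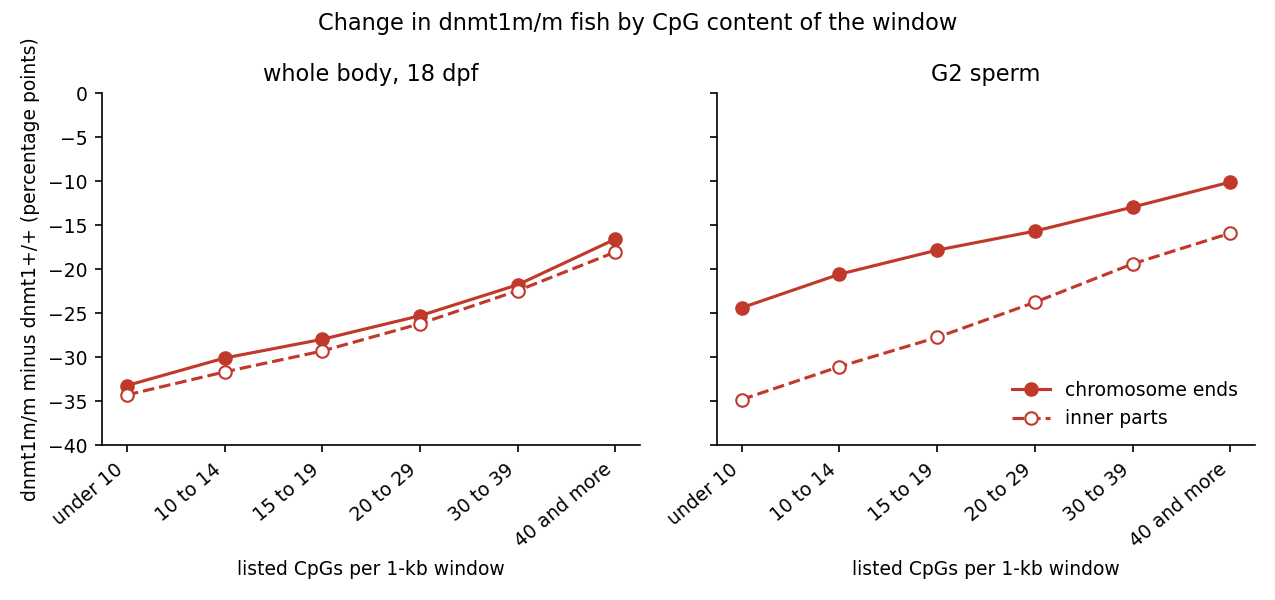
Methylation in dnmt1m/m minus dnmt1+/+ fish (percentage points, means of 3 fish per group) by the number of listed CpGs in the 1-kb window, for chromosome ends (filled circles) and inner parts (open circles). In G2 sperm the ends lie clearly above the inner parts in every class, while in whole body they lie only slightly above them.

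No step marked the limit of 1 Mb, and the levels changed gradually along the chromosome. Wild-type G2 sperm had 86.2% in the outermost 50 kb, 87.3% between 100 and 250 kb, 89.9% between 500 and 1000 kb, 91.3% between 1 and 2 Mb and 92.8% between 10 and 20 Mb. Wild-type whole body had 76.9% in the outermost 50 kb, where only 354 windows were measured, and 82.0% between 500 and 1000 kb. In mutant G2 sperm the level was nearly flat over the ends, at 71.5% in the outermost 50 kb and 73.4% between 500 and 1000 kb, stayed at 73.3% between 1 and 2 Mb, and then declined to 71.4%, 67.7%, 64.7% and 62.6% towards the middle of the chromosome (2 to 5, 5 to 10, 10 to 20 and beyond 20 Mb). The zone of smaller loss in sperm thus reached well beyond the outermost 1 Mb. In mutant whole body the level was 53.8% in the outermost 50 kb, rose to 58.1% between 2 and 5 Mb and declined to 51.7% beyond 20 Mb. Wild-type whole body had 83.6% between 2 and 5 Mb and 80.7% beyond 20 Mb. The smaller loss in whole body was thus not confined to the outermost 1 Mb either. Just inside the limit, between 900 and 1000 kb, G2 sperm had 90.6% in wild-type and 73.3% in mutant males, and just outside it, between 1000 and 1100 kb, 90.4% and 73.3%. CpG content moved with distance as well, from 23.6 listed CpGs per window in the outermost 50 kb to 20.6 between 500 and 1000 kb. It was 20.8 between 2 and 5 Mb and fell to 18.8, 17.0 and 15.8 in the bins further inside, where mutant sperm also declined.

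**Figure D3:**
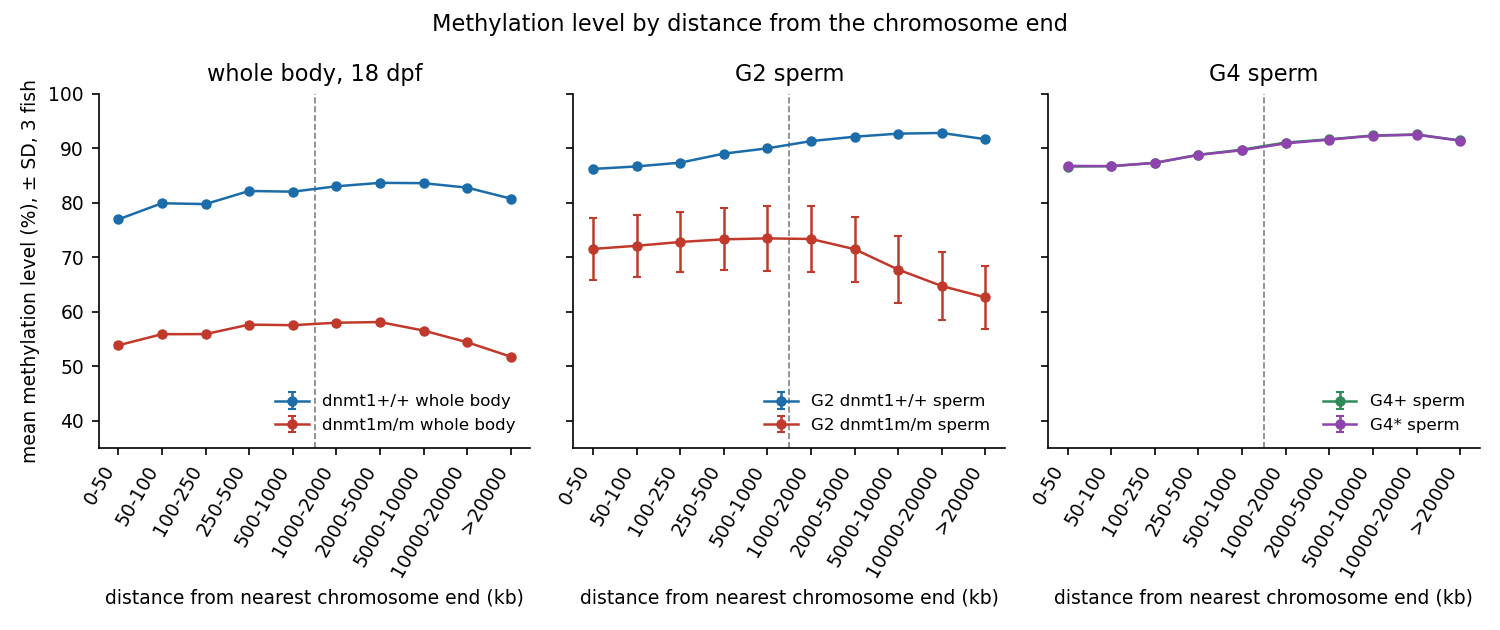
Mean methylation level (percent, ± SD over 3 fish) by distance from the nearest chromosome end in kb, in bins of unequal width, for the 6 groups. The dashed line marks 1 Mb, and no step is seen there in any group. In G4 sperm the curves of G4+ and G4* males lie on each other.

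The lower wild-type level at the ends went with a larger share of windows with little methylation. Windows under 20% made up 5.77% of the end windows and 3.30% of the inner windows in wild-type whole body, 6.26% and 3.62% in wild-type G2 sperm and 5.68% and 3.52% in G4+ sperm. Among windows at 80% or more in G4+ sperm, a setting chosen after seeing the data, wild-type G2 sperm had 96.3% at the ends and 96.7% in the inner parts, and wild-type whole body had 87.9% and 86.1%. In these windows mutant G2 sperm still had 79.9% at the ends against 69.6% in the inner parts. The distribution of levels in mutant sperm differed between ends and inner parts as well. Of the end windows, 28.5% to 68.1% were over 80% in single mutant males (mean 52.1%), against 5.68% to 26.6% of the inner windows (mean 17.8%).

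Single windows were compared by a limma fit to logit-transformed window means over all windows of all chromosomes. A window was called where the groups differed by 20 points or more with a false discovery rate below 5%. In mutant whole body 6196 of 9065 end windows were called lower, or 68.4%, against 81.7% of all windows. In mutant G2 sperm 6168 of 22405 were called lower, or 27.5%, against 71.4% of all windows. This count rests partly on the threshold of 20 points, since 19983 end windows passed without it, against 596931 of the 624580 windows on all chromosomes. It also rests on the first mutant male, without which 3430 end windows were called, against 367924 of all windows. Without the second mutant male 8233 were called, against 478474 of all windows. The median change of an end window was -24.8 points in whole body and -14.6 points in G2 sperm, against -28.4 and -26.1 points in the inner parts. Groups did not overlap, with all 3 mutants lower, in 8472 end windows (93.5%) in whole body, where the share over all windows was 96.6%, and in 20087 (89.7%) in G2 sperm, where it was 95.8%. In most end windows all 3 mutants thus lay below wild type in sperm too, but by less than in the inner parts.

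Windows called higher in mutants were few. In whole body limma called 0 end windows higher, where 0.0062% of all windows were called. An unadjusted limma p under 0.05 in either direction was found there in 8533 of 9065 end windows, against 391293 of 403058 over all windows. In G2 sperm limma called 4 end windows higher, or 0.0179%, the same as the share of all windows, 0.0179%. All 3 mutants lay above all 3 wild-type fish in 6 end windows in whole body (0.0662%, against 0.0449% of all windows) and in 35 in G2 sperm (0.156%, against 0.077%). Of these 4, 3 lay near the high-numbered end of chromosome 16, at 86.4, 521 and 560.4 kb from it.

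All 48 ends shared the smaller loss. In G2 sperm each end lost less than the inner part of its own chromosome, by 6.62 to 12.7 points with a median of 10.4, and in whole body by 0.398 to 7.07 points with a median of 3.59. Single ends were not matched to the inner parts for CpG content. Within classes of CpG content the mean difference in whole body was only 1.10 points. The wild-type level of single ends ranged from 82.1% to 93.0% in G2 sperm and from 74.5% to 85.6% in whole body, and was below that of the inner part at 47 and at 30 of the 48 ends, respectively. Ends are called low-numbered or high-numbered by their position in the assembly. The high-numbered end of chromosome 5 was the least methylated in wild-type G2 sperm (82.1%, 82.2% and 81.9% in the 3 males) and in G4+ sperm (80.9%, 81.7% and 81.7%). It was followed by the low-numbered ends of chromosome 14 (83.2% in wild-type G2 sperm) and chromosome 22 (85.7%). The low-numbered ends of chromosomes 7 and 24 and the high-numbered end of chromosome 9 were the most methylated, at 93.0%, 92.5% and 91.9%. In wild-type whole body the low-numbered end of chromosome 14 (74.5%), the high-numbered end of chromosome 5 (74.95%) and the low-numbered end of chromosome 16 (75.5%) were lowest, and the low-numbered ends of chromosomes 17 and 5 (85.6% and 85.3%) and the high-numbered end of chromosome 9 (85.0%) were highest.

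The order of the ends by loss was partly shared between tissues. The loss in G2 sperm was smallest at the high-numbered end of chromosome 5 (13.9 points), the low-numbered end of chromosome 22 (14.1 points) and the high-numbered end of chromosome 16 (14.5 points). It was largest at the low-numbered end of chromosome 3, where the mutant males had 62.2%, 76.6% and 72.5% against 90.4%, 91.3% and 90.6% in wild type, a loss of 20.4 points. The low-numbered end of chromosome 11 and the high-numbered end of chromosome 14 followed, each with 17.8 points. In whole body the loss was smallest at the high-numbered ends of chromosomes 23 (21.1 points) and 5 (21.2 points) and the low-numbered end of chromosome 22 (21.4 points), and largest at the high-numbered end of chromosome 1 (27.4 points) and the low-numbered ends of chromosomes 15 (27.4 points) and 3 (27.1 points). Across the 48 ends the changes in both tissues had a Pearson r of 0.467 and a Spearman rho of 0.440. CpG content and change had r = 0.548 in whole body and 0.330 in G2 sperm, where the richest end, the low-numbered end of chromosome 22 with 31.0 listed CpGs per measured window, also had one of the smallest losses. Wild-type level and change had r = -0.409 in whole body and -0.337 in G2 sperm, so that ends with more methylation tended to lose more points. The ends share fish and libraries, and these correlations are descriptions.

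**Figure D4:**
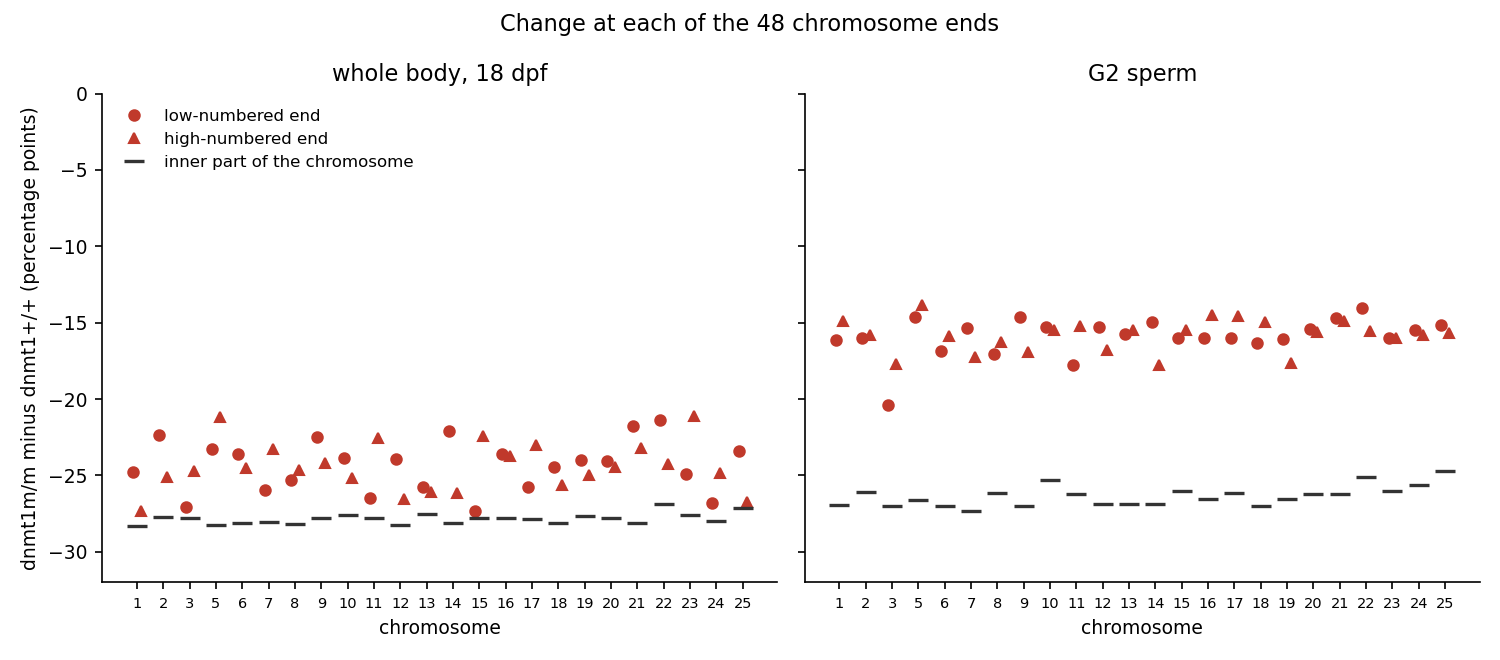
Methylation in dnmt1m/m minus dnmt1+/+ fish (percentage points) at the low-numbered end (circle) and high-numbered end (triangle) of each of 24 chromosomes and in the inner part of the chromosome (bar). All 48 ends lie above the bar of their chromosome in both tissues, and the low-numbered end of chromosome 3 is the lowest end in G2 sperm.

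The typical spread between fish was no larger at the ends, but widely spread windows were somewhat more frequent there in 5 of the 6 groups. The SD over the 3 fish of an end window had a median of 1.13 points in wild-type and 5.84 points in mutant G2 sperm, against 1.15 and 6.62 points in inner windows. It exceeded 10 points in 1.25% of the end windows and 0.812% of the inner windows of wild-type G2 sperm. The shares were 2.66% and 1.73% in wild-type and 3.80% and 3.33% in mutant whole body, 2.38% and 1.80% in G4+ males, with 2.25% and 1.49% in G4* males. In mutant G2 sperm, the exception, they were 16.8% and 19.7%, and the low-numbered end of chromosome 3 had the highest share of the 48 ends, 33.0%.

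The end windows with the largest called losses in whole body fell by 57 to 68 points. Positions are those of danRer10 (GRCz10). Each window is named by the gene that the deposited interval tables give as nearest to an interval overlapping it, with "within" where that interval lies in the gene. Where no interval overlaps a window, the gene of the nearest interval within 5 kb is given. A gene called near can lie far from its interval, as at elf3 (10547 bp) and impa2 (23574 bp). On chromosome 22, positions 638000 to 638999, near elf3, which encodes an ETS transcription factor of epithelia, wild-type fish had 86.6%, 79.8% and 80.6% and mutants 18%, 17.1% and 8%. In a window within pym1 on chromosome 8 (460000 to 460999), the gene of an exon junction complex factor, wild-type fish had 93.1%, 90.2% and 79.6% and mutants 32.8%, 30.6% and 26.5%. In a window within lpar2b on chromosome 1 (58423000 to 58423999), a lysophosphatidic acid receptor gene, the levels were 89.7%, 81.1% and 81.3% against 30.6%, 30.1% and 20.4%. The 3 windows had 5 to 7 measured CpGs and limma adjusted p-values of 1.95e-05, 2.24e-05 and 1.96e-05. They were chosen among called windows whose groups did not overlap, so that the distance between the groups follows from the choice.

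The largest called losses in G2 sperm were of 69.3 to 72.0 points. A window near wu:fi09b08 on chromosome 5 (812000 to 812999), with 26 measured CpGs, had 87.4%, 84.8% and 85.4% in wild-type males and 10%, 18.6% and 14.1% in mutants (limma adjusted p = 4.29e-06). A window near tbl3 on chromosome 3 (61935000 to 61935999), a gene of ribosome assembly, had 97.8%, 97.8% and 96.3% in wild type. Its mutants had 4.26%, 45.9% and 33.8% (limma adjusted p = 1.21e-05), so that the first mutant male, with the lowest level at the ends as a whole, was also the lowest here. The third window, on chromosome 16 (55057000 to 55057999), had no interval within 5 kb and fell from 91.8% ± 9.20 to 19.8% ± 10.4.

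Of the 4 windows called higher in mutant G2 sperm, the 3 on chromosome 16 were intermediate in wild type. A window within si:ch1073-288h17.2 (chromosome 16, 54860000 to 54860999) had 23.1%, 51.6% and 27.2% in wild-type males and 64.0%, 82.0% and 69.4% in mutants. A window near CNDP1 (chromosome 16, 55295000 to 55295999), which encodes a dipeptidase, had 28.1%, 61.7% and 33.3% in wild type and 73.5%, 83.3% and 79.4% in mutants. A window beside fbxo43 (chromosome 16, 54821000 to 54821999), an inhibitor of the anaphase-promoting complex in meiosis, had 55.5%, 65.5% and 49.0% against 74.5%, 88.3% and 83%. The 3 windows on chromosome 16 behaved alike, with the highest wild-type male still below the lowest mutant. The fourth window, beside cacna1sa on chromosome 22 (940000 to 940999), a calcium channel gene of skeletal muscle, did not separate the groups. Its wild-type males had 45.6%, 3.19% and 0.735% and its mutants 24.8%, 48% and 46.1%. The limma adjusted p-values of the 4 windows were 0.00117, 0.000924, 0.00246 and 0.0230. For fbxo43 and cacna1sa the gene comes from the nearest interval within 5 kb.

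Windows with little methylation in every fish were more frequent at the ends than inside. Of the 6627 end windows measured in all 18 fish, 300 (4.53%) were under 10% in every fish, against 5290 of 233216 inner windows (2.27%). The low windows were rich in CpGs, with 46.6 listed CpGs on average at the ends and 37.0 inside. All windows measured in the 18 fish held 29.4 listed CpGs at the ends and 22.8 inside, and the shares were not matched for CpG content. The 6 with the most measured CpGs lay beside irf2bp2b (a transcriptional corepressor), CABZ01112647.1, lsm14ab (an RNA-binding protein of P bodies), CU694495.1 and aurka (a mitotic kinase), and on chromosome 2 (815000 to 815999) with no interval within 5 kb. For irf2bp2b, lsm14ab, CU694495.1 and aurka the gene comes from the nearest interval within 5 kb. The window at irf2bp2b, with 54 measured CpGs, was between 0% and 0.609% in all 18 fish, and that at CABZ01112647.1 between 0.246% and 7.79%. A level under 10% in every fish was the rule by which these windows were chosen.

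Windows far higher in wild-type sperm than in wild-type body were less frequent at the ends than inside, and windows far lower in sperm were more frequent. Sperm was at least 20 points higher in 337 end windows (5.09%) against 9.91% of the inner windows, and at least 20 points lower in 45 (0.679%) against 0.421%. The median of sperm minus body was 5.59 points at the ends and 7.70 points inside. The tissues came from different tables, so that only CpGs valued in all 18 fish entered these values. Sperm was above body at psmb2, a proteasome subunit gene on chromosome 19, with 95.5%, 99.0% and 94.4% in sperm against 28.8%, 24% and 21.7% in body. It was also above body near tiprl on chromosome 10 (97.7% against 12.7%), btr12 on chromosome 7 (94.7% against 26.2%) and fstl4 on chromosome 21 (97.6% against 30.6%). The distance given for tiprl from its interval was -28619 bp. Windows with no interval within 5 kb on chromosomes 23 (98.1% against 13.1%) and 11 (98.2% against 27.1%) were higher in sperm too. Sperm was below body beside bysl on chromosome 22, a gene of ribosome assembly, with 17.8%, 14.6% and 7.99% against 74.1%, 68.6% and 68.9%. The same held near si:ch1073-328c12.2 on chromosome 21 (10.3% against 57.6%) and tfap2e on chromosome 19, an AP-2 transcription factor gene (10.9% against 57.1%). It held in the window beside fbxo43 (35.7% against 86.6%, over the 6 of its CpGs valued in all fish). Windows with no interval within 5 kb on chromosomes 24 (1.77% against 74.8%) and 16 (6.31% against 59.9%) were lower in sperm too. Apart from psmb2, tiprl and btr12, the gene names in this comparison come from the nearest interval within 5 kb. Sperm of G4+ males was close to that of wild-type G2 males in the windows at psmb2 (95.7%) and tfap2e (16.2%), but not at fbxo43 (70.2%, 53.3% and 98.4%) or btr12 (57.2%, 97.7% and 64.7%), where single males differed widely. In the chromosome 16 window with no interval within 5 kb (747000 to 747999) the G4+ males were alike, at 24.3%, 24.9% and 24.9%. All were above the wild-type G2 males with 1.10%, 8.34% and 9.49%.

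In G4 sperm the ends had the wild-type pattern. G4+ males had 88.7%, 89.1% and 88.6% at the ends and G4* males 88.7%, 88.7% and 88.8%. The end minus inner difference was -3.23 ± 0.166 points in G4+ and -3.23 ± 0.0401 points in G4* males, but -0.190 and -0.236 points between the medians of end and inner windows. For the means, the 6 males together gave p = 0.031 in the exact sign-flip test, the smallest value it allows. The change from G4+ to G4* was -0.0526 points at the ends and -0.0460 points in the inner parts (exact permutation test, p = 1 and p = 0.5), and the difference between these changes was -0.00664 points (p = 0.9, exact permutation test). Over CpGs valued in all 18 fish, the end minus inner difference was -3.81 points in wild-type G2, -3.93 in G4+ and -3.96 points in G4* sperm, against +6.45 points in mutant G2 sperm. Of 6 such comparisons between tissues and generations, 5 had p = 0.1 in the exact permutation test (adjusted p = 0.12), the smallest possible. These included G4* against wild-type G2 sperm, where the groups differed by -0.151 points. The same exact test of G4+ against wild-type G2 sperm, with -0.119 points, gave p = 0.3 (adjusted p = 0.3). Single ends changed by -2.42 to +1.75 points from G4+ to G4*, and 24 of 48 changed upwards. The lowest value belonged to the high-numbered end of chromosome 3, where 2 of the 3 G4* males were low (86.4% and 86.7% against 91.0% in the third).

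Few single windows differed between G4+ and G4* sperm, and nearly all lay at the low-numbered end of chromosome 24. Limma called 2 of 29939 end windows lower in G4* males (0.0149% of all windows were called) and 5 higher (0.00734% of all windows), and 6 of these 7 were on that end. None was called with any male left out, with an offset of 0.001 in place of 0.01, or with the replicate number in the model. In these fits 1394 to 1651, 1400 and 1600 of 29939 end windows had an unadjusted limma p under 0.05. Over all windows the counts were 39085 to 43612, 35497 and 41369 of 763308. Groups did not overlap in 1667 end windows with G4* lower (5.57%, against 5.36% of all windows) and in 1537 with G4* higher (5.13%, against 4.97%). A window within the cadherin gene CDH7 (1 of many), positions 40000 to 40999, had 60.7%, 56.9% and 46.0% in G4+ and 0.347%, 0% and 0% in G4* males (limma adjusted p = 0.0150). A window near impa2, an inositol phosphatase gene (273000 to 273999), had 96.3%, 97.0% and 97.9% in G4+ and 47.9%, 63.3% and 67.1% in G4* males (limma adjusted p = 0.0485). A window within napga, which encodes a SNAP protein of vesicle fusion (952000 to 952999), had 55.4%, 52.0% and 50.8% in G4+ and 96.8%, 96.1% and 96.1% in G4* males (limma adjusted p = 0.0195). Further windows of napga and of its neighbour piezo2a.2, a mechanically gated channel gene, were called higher in G4* by 26.8 to 40.2 points. The windows called in these genes all lay between 949000 and 957999. The window called outside chromosome 24 lay on chromosome 1 (58225000 to 58225999), with 0%, 0.368% and 0% in G4+ and 25.1%, 18.4% and 30.6% in G4* males.

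Among the study's own differentially methylated intervals of G4 sperm, those at the ends also lay mostly on chromosome 24. There were 13 G4 intervals at the ends, or 0.434 per 1000 measured windows, against 0.325 per 1000 in the inner parts, and 7 of the 13 lay at the low-numbered end of chromosome 24. Apart from that within CDH7, these 7 lay in a single stretch from 944398 to 957194, within piezo2a.2 and napga. The windows of these genes called by limma lay in the same stretch and came from the same males. The number of intervals at the ends thus does not stand for as many separate places. The G2 intervals numbered 6535, or 292 per 1000 measured windows at the ends, against 361 per 1000 in the inner parts. Since the G4 intervals had been selected on these 6 males, their G4 values are given as a description. The 6 with the largest difference lay near tmed1b and tmed7 (cargo receptors of the secretory pathway), within rtn4b (a reticulon of the endoplasmic reticulum), within CDH7 and, in 2 stretches, within napga. At tmed1b (chromosome 1, 58146709 to 58146963) G4+ males had 2.21%, 1.01% and 0.998% and G4* males 40.6%, 48.5% and 96.1%. At rtn4b (chromosome 13, 136966 to 137417) G4+ males had 89.2%, 81.1% and 78.4% and G4* males 31.4%, 32.2% and 30.1%. At tmed7 (chromosome 8, 157354 to 157642) the levels were 63.0%, 57.5% and 52.2% against 17.3%, 8.67% and 15.3%. The groups were far apart at each, but at tmed1b the G4* males also differed among themselves.

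The G2 males had not been used to select these intervals, and their levels differed from interval to interval. Fewer CpGs of an interval were measured in G2 than in G4 sperm, so that both levels do not rest on the same CpGs. The first napga interval below had 29 measured CpGs in G4 and 13 in G2 sperm, and that at rtn4b had 10 and 5. In the napga interval from 951965 to 952798 the wild-type G2 males had 97.5%, 98.5% and 100%, and the mutants 40.1%, 82.6% and 42.8%. In the second napga interval, from 956441 to 957194, they had 98.6%, 97.7% and 97.8% against 45.3%, 91.5% and 45.5%, so that the second mutant male stood apart in both. G4+ males had 53.9%, 52.7% and 50.7% in the first interval, below each wild-type G2 male, and G4* males 98.3%, 97.3% and 98.7%. At CDH7 (40280 to 40902) all 6 G2 males were between 0% and 1.02%, as were the G4* males, and the G4+ males with 46.0% to 60.7% were the exception. At tmed1b 1 wild-type G2 male had 53.7% and the others 97.3% and 96.8%, while the mutants had 0.764%, 87.7% and 0%. At tmed7 the G2 males had 0.971% to 30.8%, and at rtn4b 42.9% to 57.7% in wild type and 10.5% to 45.8% in mutants.

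**Figure D5:**
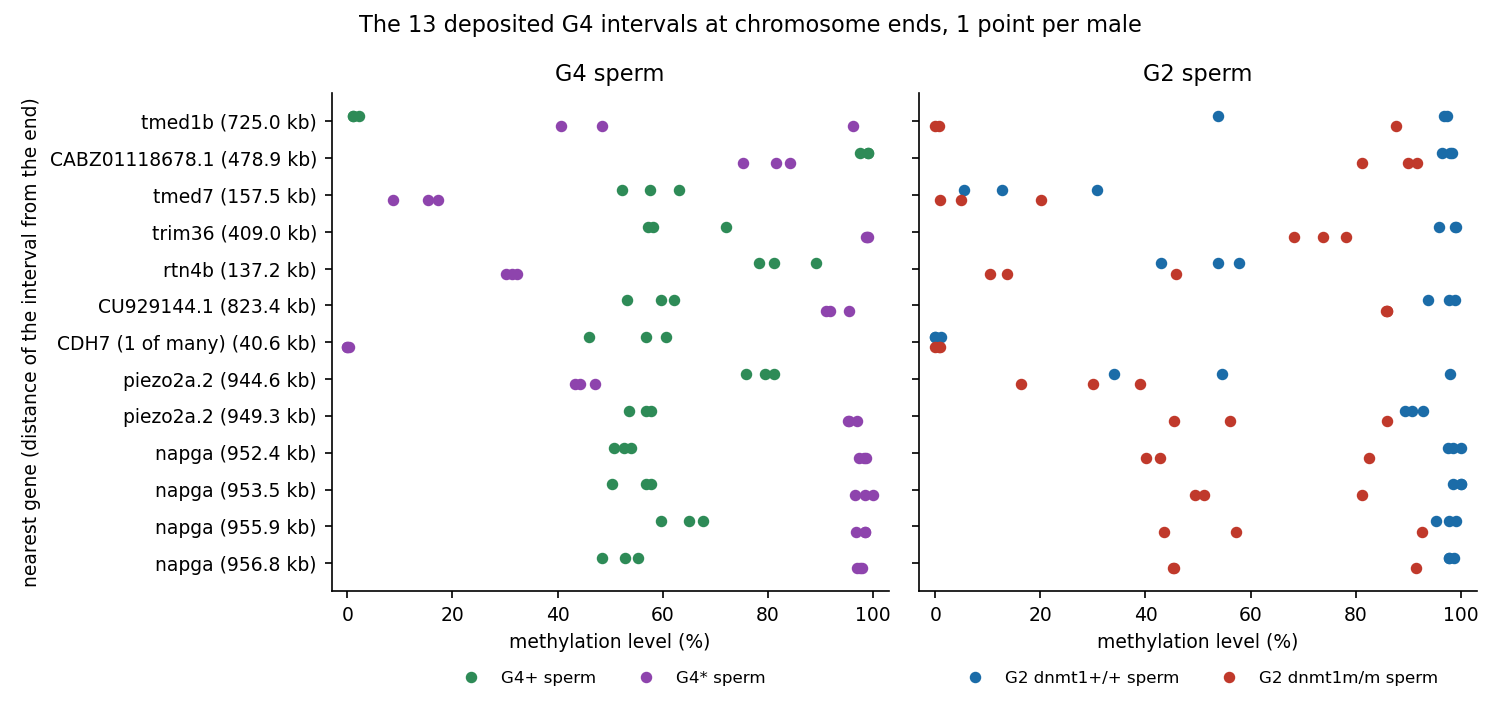
Methylation level (percent) of each male in the 13 deposited G4 intervals at chromosome ends, named by nearest gene with the distance of the interval from the end, in G4 sperm (left) and in G2 sperm (right). In the 4 napga intervals the G4+ males lie between 48.5% and 67.7% and the G4* males above 96%, and wild-type G2 males lie at 95% and more. Fewer CpGs were measured in G2 than in G4 sperm.

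Of the 69 list genes named in the interval tables, 2 (2.90%) had an interval at an end, where 3.57% of all windows lie. Of 32 genes of T cell development, 25 were named in the interval tables and 1 of these, tcf7, had an interval at an end. Of 20 DNA methylation genes and 17 germline genes, 18 and 13 were named and 0 lay at the ends. Of 16 genes of telomere upkeep 13 were named and 1, ctc1, which encodes a subunit of the telomere-capping CST complex, was at an end, 994 kb from it. At tcf7, a transcription factor gene of early T cells 612 kb from the end of chromosome 21, G2 sperm had 96.6%, 97.0% and 96.7% in wild type and 69.9%, 81.7% and 80.6% in mutants over 99 CpGs. Wild-type and mutant whole bodies had 85.5% ± 1.35 and 54.3% ± 2.25 there, and G4+ and G4* males 96.7% ± 0.815 and 96.5% ± 0.455. At ctc1 the 33 CpGs measured in G2 sperm had 97.5% ± 0.209 in wild type and 81.2% ± 5.35 in mutants, and whole body, with 15 CpGs, had 79.8% ± 12.7 and 75.3% ± 4.8. The CpGs at both genes are those of the G2 intervals, which the authors had selected on these G2 males. The G2 sperm values are therefore given as a description. In whole body all 3 mutants lay below all 3 wild-type fish at tcf7, as in most end windows, while at ctc1 the groups overlapped.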

How the data were processed

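DNA of 18 fish was sequenced after bisulfite treatment from 36 libraries (TruSeq and EpiGnome, 2 per fish), in paired-end mode. The authors trimmed reads with cutadapt 1.9.1, mapped them to danRer10 (GRCz10) with BWA 0.7.12, removed duplicates with Picard 1.136, merged the libraries of a fish, and set CpGs with few reads or with a polymorphism to missing. The deposited values are fractions of reads methylated per CpG (0 to 1), given here as percent, with no further normalization. The number of reads behind a fraction is unknown here, and no counting interval is given. Of 23946533 listed CpGs, 41.1% to 66.3% had a value in a fish. The bounds and the nearest gene of the deposited intervals were used, and the authors' fold changes, group means and p-values in these tables were not. The G4 columns named Ctrl and Pb were taken as G4+ and G4*, after the study's supplement.

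Window means over CpGs valued in all 6 fish of a table were averaged per fish. Groups of fish were compared with exact permutation and sign-flip tests, all two-sided, and windows with limma 3.58.1 in R 4.3.3 on the logit (offset 0.01), with Benjamini-Hochberg adjustment over all windows of 25 chromosomes. The limma step was also run on simulated windows. The p-values measure the spread between 3 fish per group, and whether the fish of a group came from separate crosses is not given in the sources used here. The highest share of end windows with the same value in a pair of fish was 2.08%, so no fish was counted as a repeat.

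Named windows were the 3 largest losses and gains per comparison among called end windows whose groups did not overlap, with 1 per end at most, the 6 low windows with the most CpGs, the 6 largest differences of each sign between wild-type sperm and body, and the 3 extremes of single ends. As the G4 intervals at the ends numbered more than 12, the 6 with the largest difference were named. The other called windows, ctc1 and tcf7 were named because their counts were small. The windows, lists and rules were chosen with earlier results of these data known. Alternatives were other widths of the ends, CpG minimums, averages, weights, transformations and CpG classes, a replicate block and each fish left out. Sequences of the windows are not given here.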

Additional observations from a re-analysis of the deposited data

Results flagged for a closer look

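In a pair of end windows on chromosome 16 the mutants changed in opposite directions in whole body and in G2 sperm. The groups did not overlap in either tissue. Both windows were taken from those called higher in mutant G2 sperm, so that the choice fixed the direction there. A loss was the usual direction in whole body, where all mutants lay below all wild-type fish in 8472 of 9065 end windows. The window beside fbxo43 had 93.1%, 90.2% and 75.8% in wild-type and 70.1%, 56.2% and 58.3% in mutant whole body, a change of -24.8 points, while it was 25.2 points higher in mutant than in wild-type G2 sperm, a difference of 50 points between the tissues. The window near CNDP1 changed by -26.4 points in whole body and by +37.7 points in G2 sperm, a difference of 64.1 points. The difference between the tissues was not tested in these windows. Of 8611 end windows measured in both tables, 4 had such opposite changes (0.0465%), against 102 of 345339 inner windows (0.0295%).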

How the results depend on the processing

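The difference in loss between ends and inner parts kept its direction in whole body and G2 sperm under each alternative run, and leaving out single fish gave 3.46 to 3.59 and 10.4 to 10.7 points. The end minus inner level of wild-type whole body reversed with the median over windows (1.137 points) and in windows at 80% or more in G4+ sperm (1.84 points, chosen after seeing the data), and was -0.159 points with ends of 2 Mb. It was -0.131 points in wild-type G2, -0.190 in G4+ and -0.236 points in G4* sperm with the median. The difference between G4* and G4+ reversed with ends of 500 kb (0.0583 points) and ranged from -0.0791 to 0.0837 points with single males left out. The cause was not tested.

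Counts of called end windows moved with the width of the ends and with the windows tested, by construction. With ends of 500 kb, limma called 2792 of 4170 end windows lower in whole body and 2845 of 11395 lower and 1 higher in G2 sperm. With ends of 2 Mb it called 14121 of 20143 lower and 2 higher in whole body. In G2 sperm it called 14111 of 44547 lower and 8 higher with this width. Over all windows 329430 of 403058 in whole body and 446197 of 624580 in G2 sperm were lower with either width. Windows called higher numbered 25 in whole body and 112 in G2 sperm over all windows. In G4 sperm 0 of 15252 end windows were higher with 500 kb, against 56 of 763308 over all windows. With at least 10 CpGs it called 1597 of 2876 end windows lower in whole body, against 83298 of 111808 over all windows. In G2 sperm it then called 1910 of 10443 lower, against 150170 of 242955, and 1 higher, against 67. Without a minimum difference it called 8 of 9065 higher in whole body, against 233 of 403058 over all windows. In G2 sperm it then called 19983 of 22405 lower, against 596931 of 624580, and 20 higher, against 339. In G4 sperm it called 0 lower and 0 higher with an offset of 0.001, at the ends and over all windows. With untransformed fractions it called 5 and 8 of 29939 end windows, against 214 and 101 of 763308 over all windows. With single fish left out, 6121 to 6177 of 9065 end windows were lower and 0 higher in whole body. Over all windows 325540 to 328325 of 403058 were then lower and 21 to 36 higher. In G2 sperm 3430 to 8233 of 22405 were lower, against 367924 to 478474 of 624580, and 4 to 9 higher, against 95 to 147. In G4 sperm the count was 0 in either direction. Same-numbered fish had correlations of -0.0127 to 0.0115 in whole body and of -0.00171 to 0.00836 in G2 sperm. In G4 sperm these were all positive, from 0.00997 to 0.0467. Each G4 male correlated best with the same-numbered male of the other group, which was not so for every fish in whole body and G2 sperm. With the replicate block, limma called 7 of 22405 end windows higher in G2 sperm, against 123 of 624580 over all windows. In G4 sperm it then called 0 lower and 0 higher, at the ends and over all windows. The difference in loss in G2 sperm stayed at 10.6 points.

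With 3 fish per group no exact test between groups can fall below 0.1. Values rest on the CpGs that passed the authors' coverage and variant filters, which left 18.97% of the end windows in whole body.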
